A study of Mus musculus with 16 samples.

Results

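The hippocampal transcriptome of undisturbed mice was described in the homecage (HC) group, the 4 mice out of 16 in the series whose labels place them in that group. HC mice were wild type C57BL/6 mice of 3 months, male according to the methods, that stayed in their cages throughout and received no handling, no inescapable shocks and no escape trials. The other 12 mice had the same strain, genotype and age and fell into 3 groups of 4. Control (Ctrl) mice were placed in the shuttle box without shocks on the first day and were given 30 escape trials with foot shocks of 0.4 mA on the next. The remaining mice had first been exposed to 180 shocks of this strength that they could not escape, and their behavior in the later trials divided them into learned helpless mice (LH) and mice that did not become helpless (NLH). The hippocampi of both sides were combined per mouse, and 1 total RNA library was made from each mouse. An HC library is therefore an average over all hippocampal cells of 1 mouse, and in such bulk tissue fewer cells of a type and less RNA per cell cannot be told apart.

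The hippocampus is a layered structure of the temporal lobe that is needed for spatial and episodic memory and that regulates the stress axis. Its main circuit runs from the granule neurons of the dentate gyrus (DG) through the pyramidal neurons of CA3 to those of CA1, all of which release glutamate, and is controlled by GABAergic interneurons. Astrocytes, oligodendrocytes, microglia and vessels surround these neurons, and the choroid plexus, an epithelium that makes cerebrospinal fluid, lies directly next to the tissue in the ventricle.

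The values were FPKM for 80137 transcripts, a number of sequenced fragments scaled by the length of the transcript and by the size of the library. Because of the scaling by length, a share of summed FPKM approximates a share of transcript molecules rather than of reads. The FPKM of HC mice 1 to 4 summed to 129935, 126530, 122690 and 132083, with mouse 3 the lowest. Depth was not given with the values and was estimated from the steps of FPKM at loci with a single long transcript as 31020000 to 33990000 fragments per HC mouse, a narrow range. Gene levels were obtained by adding the FPKM of all transcripts that carry the same gene name. Of 18287 gene names, 15872 were above 0 in all 4 HC mice, 10349 had a mean of at least 1 FPKM, 2340 of at least 10 and 78 of at least 100.

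Protein coding genes held most of the HC transcriptome. They accounted for 76.3% ± 0.547 (SD, n = 4 mice) of the summed FPKM, from 56384 transcripts. Transcripts that were assembled from the reads and carry no Ensembl identifier, named only by a locus number of the assembly, held 20.3% ± 0.478. Long noncoding RNAs (lncRNAs) held 2.84% ± 0.172, a single ribosomal RNA transcript 0.457% ± 0.0396, and pseudogenes 0.0929% ± 0.0130. Transcripts of T cell receptor and immunoglobulin genes together reached only 0.00265%. The class given with the values is a property of the gene, and GENCODE vM21 gives a type to each transcript. Within protein coding genes, transcripts of the protein coding type held 84.0% ± 0.197 of the FPKM, transcripts with a retained intron 8.72% ± 0.150, processed transcripts without a reading frame 4.97% ± 0.0558, and transcripts marked for nonsense-mediated decay 2.28% ± 0.0230. The protein coding share was lowest in mouse 3, at 75.5%, and highest in mouse 4, at 76.8%, and the share without an identifier ran the other way, from 21.0% to 19.9%.

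**Figure D1:**
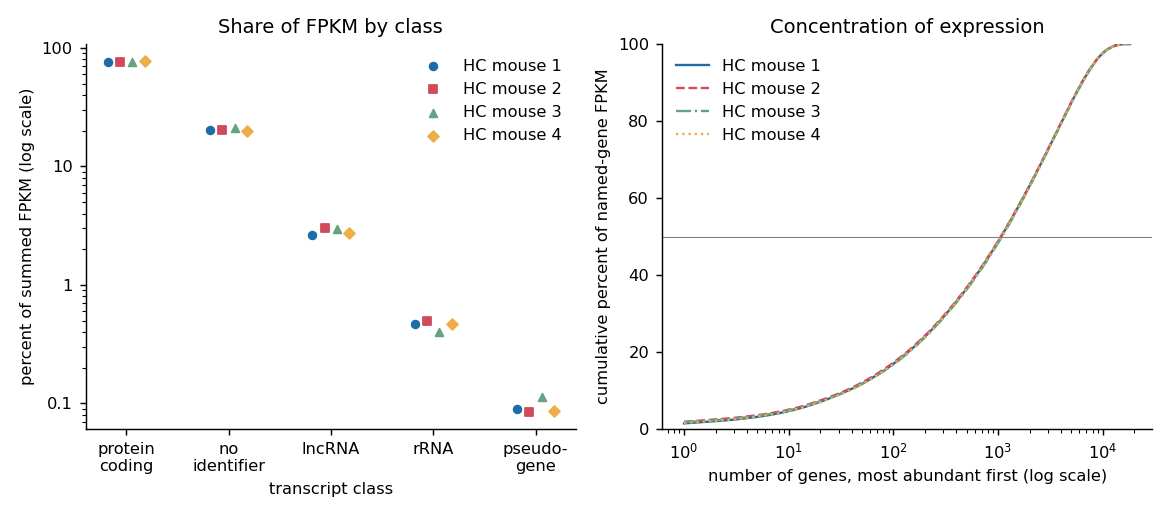
Left, the percent of summed FPKM (log scale) by transcript class, with 1 point per HC mouse. Protein coding genes lie near 76.3% and lncRNAs near 2.84% in all 4 mice. Right, the cumulative percent of the FPKM of named genes against the number of genes, taken from the most abundant (log scale), 1 line per HC mouse. The 4 lines lie on each other and cross the grey line at 50% between 1064 and 1090 genes.

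Expression was spread over many genes. The most abundant gene held 1.74% ± 0.191 of the FPKM of named genes, the top 25 held 8.19% ± 0.168, the top 100 held 17.0% ± 0.215 and the top 1000 held 48.6% ± 0.220. The number of genes needed to reach 50% of the FPKM was 1072, 1064, 1090 and 1079 in mice 1 to 4. The mice largely shared their top ranks: 22 genes were among the 25 most abundant in all 4 mice, and 88 among the 100 most abundant. Transcripts of the top genes were shorter than average, with a median length of 1799.5 bases for the 100 most abundant genes against 2601 bases for all genes with at least 1 FPKM. Across all of these genes, length and level were unrelated (Spearman's rho = 0.00579 across genes, which are not independent replicates).

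The gene with the highest level was Malat1, a nuclear lncRNA that is abundant in neurons (ENSMUSG00000092341, chr19:5795690-5802672, mm10, minus strand). It stood at 1589, 1965, 1798 and 1728 FPKM in mice 1 to 4, a mean of 1770.2 ± 156 (SD, n = 4). Nearly all of this sum came from annotated transcripts of 556 and 656 bases, which are short against the span of the gene. The level, rank and shares of Malat1 thus rest on adding short pieces and need not reflect a number of molecules. The second gene, Rn18s-rs5, is a ribosomal RNA sequence of the 18S type and stood at 605, 622, 490 and 621 FPKM, with mouse 3 below the other 3 mice. It was the only transcript of the ribosomal RNA class given with the values. GENCODE gives this transcript the type of a pseudogene, and the pseudogene share of 0.0929% does not include it.

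The next genes came from astrocytes, from protein synthesis and from neurons. Glul, the glutamine synthetase by which astrocytes convert glutamate to glutamine, stood at 400.1, 409, 382 and 381 FPKM (ENSMUSG00000026473, chr1:153899944-153909723). Eef1a1, the elongation factor that brings aminoacyl-tRNA to the ribosome, had a mean of 388 ± 18.6 FPKM, and its values overlapped those of Glul, with 371 to 410 FPKM against 381 to 409. Hspa8, a constitutive heat shock protein that also strips clathrin from vesicles, followed at 315 ± 25.2 and Actb, cytoplasmic actin, with 277 to 335 FPKM. Cpe, the carboxypeptidase that trims neuropeptides, stood at 345, 269, 272 and 296 FPKM. Its main transcript stood at 276, 268, 251 and 293 FPKM and a short processed transcript at 67.1, near 0, 19.96 and 1.77. The short one had the larger SD, 31.2 against 17.1 FPKM, and its 67.1 fell in the mouse with the highest gene value.

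Several neuronal genes were in the top 25. Snap25, a membrane protein of the vesicle fusion complex, had 294 ± 8.55 FPKM (ENSMUSG00000027273, chr2:136713453-136782428) and Hpca, the calcium sensor hippocalcin, 290.2 ± 20.7 (ENSMUSG00000028785, chr4:129111570-129122036). Hpca stood at 280.03, 312, 266 and 302 FPKM in mice 1 to 4, a range that encloses that of Snap25, 281 to 300.1. Camk2a, the main subunit of calcium/calmodulin kinase II, reached 248 ± 12.4, Ppp3ca, the catalytic subunit of calcineurin, 234 ± 7.13, and Atp1b1, a beta subunit of the sodium pump, 228 ± 7.67 FPKM. Gpm6a, a neuronal membrane glycoprotein, had 191 ± 11.3. The calmodulin genes Calm2 and Calm3 stood at 272 ± 8.35 and at 171 to 195.

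Further genes of the top 25 were those of glia, blood, and general metabolism. Mbp, myelin basic protein, had 250.05 ± 6.23 FPKM, and Slc1a2, the glutamate transporter of astrocytes, 201 ± 3.82, the narrowest relative spread of the 25 genes with a coefficient of variation of 1.90%. Fth1, ferritin heavy chain, stood at 258 ± 10.8, Aldoa, aldolase A of glycolysis, at 253 ± 20.2, Sepw1, a selenoprotein, at 246 ± 12.0, Atp5b, the beta subunit of the mitochondrial ATP synthase, at 227 ± 9.62 and Cox6c, a subunit of cytochrome oxidase, at 193 ± 16.5. Hbb-bs, the beta globin of red blood cells, stood at 275, 172, 157 and 171 FPKM. Mouse 1 was high for this gene and the other 3 mice were close together, which gave Hbb-bs the widest relative spread of the 25 genes, with a coefficient of variation of 28.2%.

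**Figure D2:**
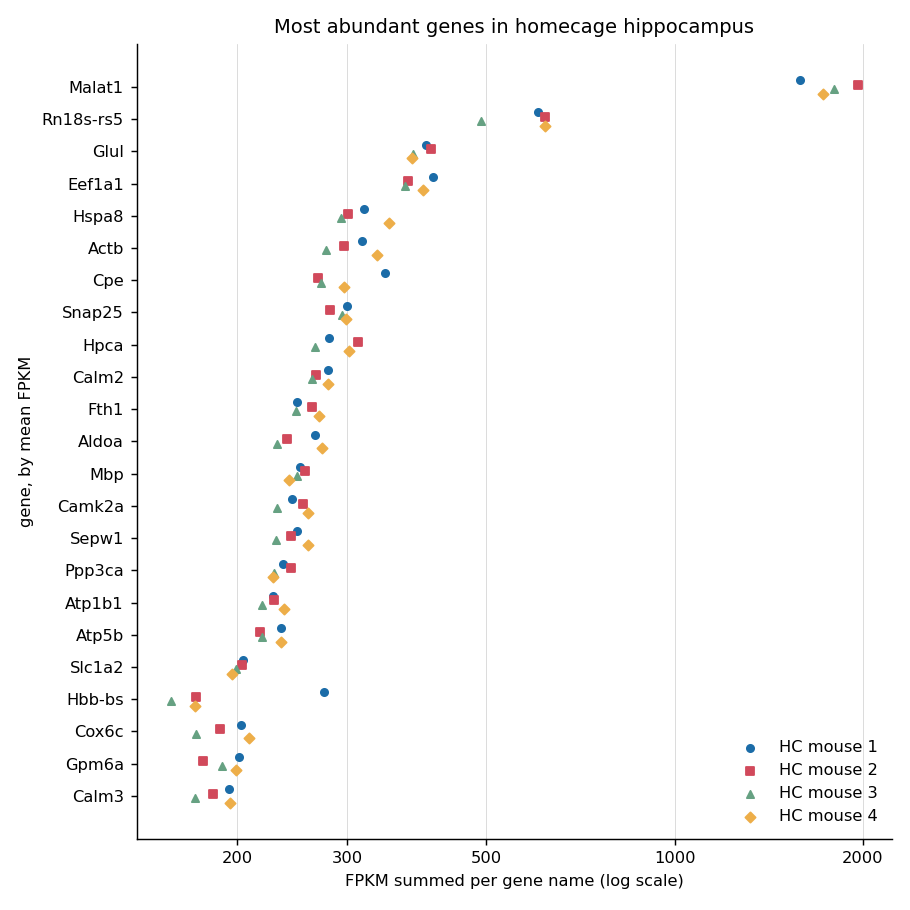
Genes among the 25 with the highest mean FPKM, from top to bottom, with the FPKM summed per gene name on a log scale and 1 point per HC mouse. Malat1 stands apart at 1589 to 1965 FPKM, and Hbb-bs is the gene with the widest scatter, with mouse 1 at 275 and the other mice at 157 to 172.

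Few lncRNA genes reached the level of protein coding genes. Of 3126 lncRNA genes, 312 had a mean of at least 1 FPKM (9.98%) and 18 of at least 10, against 10006 of 14783 protein coding genes at 1 FPKM or above (67.7%). The median lncRNA gene stood at 0.142 FPKM and the median protein coding gene at 2.51. Malat1 alone, by the sum of its short annotated transcripts, made up 48.8% ± 2.32 of the FPKM of all lncRNAs. Meg3 and Rian, maternally expressed lncRNAs of the imprinted Dlk1-Dio3 region, followed at 132 ± 7.23 and 99.4 ± 11.5 FPKM. Rian stood at 112, 85.4, 95.6 and 104 FPKM in mice 1 to 4, and all 4 values lay below the lowest value of Meg3, 123. Within the lncRNA class as deposited, the next ranks were Gm26723 at 62.8 ± 12.9, 1700020I14Rik at 44.0 ± 3.08, Gas5, a host of small nucleolar RNAs, at 28.7 ± 2.47, Miat (also called Gomafu), a neuronal lncRNA, at 23.7 ± 2.70, the antisense gene Gm28221 at 21.9 ± 6.42, and Mir124a-1hg, a host gene of the neuronal miR-124, at 21.6 ± 1.05 FPKM. Cct6a, at 61.0 ± 2.45 FPKM, was also given the type of a processed transcript, although it is known as a subunit of the CCT chaperonin. Conversely, Snhg11, known as a noncoding host gene of small nucleolar RNAs, was at 94.7 ± 1.84 FPKM but was given the protein coding class. The sources used here do not give the strand setting of the libraries, so the reads of the antisense gene cannot be told apart from those of its sense partner. Neat1, the lncRNA of paraspeckles and a neighbor of Malat1, stood at only 8.92 ± 0.709 FPKM.

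Among single transcripts, the highest were a pair of Malat1 transcripts at 894 and 877 FPKM, and 3 of the 10 highest carried no identifier. Eef1a1, Snap25 and Actb each had a transcript among these 10, at 377, 282 and 275 FPKM, beside that of Rn18s-rs5. MSTRG.75857.2 had 681 ± 80.7 FPKM, MSTRG.35277.10 had 595 ± 18.96, MSTRG.33038.2 had 323 ± 215, MSTRG.78801.1 had 260.3 ± 21.5 and MSTRG.76147.1 had 178 ± 7.55. The second of these lies at the Malat1 locus and the third at the locus of Ttr, transthyretin, the thyroid hormone carrier made by the choroid plexus. Of the 18917 transcripts without an identifier, 15765 lay at a locus that also holds a named gene, and these held 14.7% ± 0.386 of the summed FPKM. Gene levels by name thus missed part of some loci: at 1037 of 10420 loci with a named gene and at least 1 FPKM (9.95%), more than 50% of the FPKM had no name. At the locus of Camk2n1, an inhibitor of CaMKII, the named transcript had 4.32 FPKM and the whole locus 118 ± 2.33. At the locus of Ywhaz, a 14-3-3 protein, the named transcripts had 59.1 FPKM and the locus 238 ± 9.13. The locus of Snrpn, which belongs to the imprinted Prader-Willi region and carries several gene names, had 382 ± 11.8 FPKM, of which 42.5 was named. These 3 loci were chosen after their values had been seen.

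The named transcripts covered chromosomes 1 to 19 and none matched chromosome X, Y or the mitochondrial genome. Locus numbers of the assembly ran in chromosome order and ended at 75853 for chromosome 9, the last in that order. Loci with higher numbers, among them MSTRG.75857, MSTRG.78801 and MSTRG.76147, held 1140 transcripts, none with a name, and 3.46% ± 0.0887 of the summed FPKM. Genes known from the X chromosome, such as Syp and Syn1, proteins of synaptic vesicles, Gria3, Gabra3 and Pgk1, therefore had no named value, and Xist and the Y-linked genes could not be used to check the sex of the mice. Among 371 genes of the lists described here, 28 had no named value, of which 13 lie on X and 4 on Y, and 6 others have a single exon in GENCODE, such as Olig1 and Cldn5. They were left out of the levels given for their lists.

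Most genes used 1 transcript more than the others, and mice usually shared it. The dominant transcript, the one with the highest mean FPKM, was determined in 8285 genes with at least 2 named transcripts and 1 FPKM. It held a median of 62.9% of the gene's FPKM (quartiles 46.0% and 83.2%), over 50% in 5722 genes (69.1%) and over 90% in 1392 genes (16.8%). It was the highest transcript in each of the 4 mice in 5952 genes (71.8%), in 3 mice in 1333 genes and in no mouse in 18 genes. Both measures fell with the number of transcripts, from a median of 90.8% held and 87.3% of genes with the same dominant transcript among genes with 2 transcripts to 33.7% and 50.5% among genes with at least 11. Among the most abundant genes, Calm2 was carried almost entirely by 1 transcript (99.5% of the FPKM), as were Calm3 (98.1%), Eef1a1 (97.1%) and Snap25 (96.1%).

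For 4 genes of neurons or metabolism, alternative exons show what these transcript levels stand for. The exons are printed because each pair of transcripts differs in a known stretch of the protein. Sequences were cut from the transcript sequences of GENCODE vM21 at its exon positions (mm10). They run 5′ to 3′ on the strand of the gene (plus unless given as minus), and in the first 3 pairs capitals mark the bases that differ between both exons of a pair.

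Gria1 codes for the AMPA receptor subunit GluA1 and carries 2 mutually exclusive exons of 115 bases, flop and flip, which form part of the ligand-binding region and influence how fast the receptor desensitizes. They lie at chr11:57309769-57309883 and chr11:57310608-57310722 and differ at 36 bases.
Gria1 flop: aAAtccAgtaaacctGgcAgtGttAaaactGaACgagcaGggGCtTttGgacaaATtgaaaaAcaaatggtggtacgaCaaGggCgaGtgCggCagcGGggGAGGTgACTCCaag
Gria1 flip: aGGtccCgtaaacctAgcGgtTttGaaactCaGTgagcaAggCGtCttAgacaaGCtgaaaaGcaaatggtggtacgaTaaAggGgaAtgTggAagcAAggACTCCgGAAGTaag
The flop transcript (ENSMUST00000094179) stood at 37.0, 38.0, 36.4 and 40.5 FPKM in mice 1 to 4 and the flip transcript (ENSMUST00000036315) at 38.3, 37.1, 31.2 and 37.2. Flop made up 49.1%, 50.6%, 53.9% and 52.2% of the pair. Both named forms were thus close to equal in every mouse, and flip was the higher one only in mouse 1. Unnamed transcripts held 34.2% of the FPKM of the Gria1 locus, and which exon they carry was not examined.

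Snap25 carries a pair of mutually exclusive exons of 118 bases, 5a and 5b, around the cysteines by which the protein is anchored to the membrane. Exon 5a, typical of the embryonic brain, lies at chr2:136769743-136769860 and exon 5b, typical of the adult brain, at chr2:136770057-136770174. They differ at 31 bases.
Snap25 exon 5b: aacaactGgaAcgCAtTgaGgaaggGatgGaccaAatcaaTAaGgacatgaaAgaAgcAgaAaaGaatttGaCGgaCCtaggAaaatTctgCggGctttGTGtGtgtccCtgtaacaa
Snap25 exon 5a: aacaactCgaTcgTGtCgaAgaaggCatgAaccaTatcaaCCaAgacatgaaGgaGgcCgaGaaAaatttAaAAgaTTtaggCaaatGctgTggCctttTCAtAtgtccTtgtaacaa
The exon 5b transcript (ENSMUST00000028727) stood at 288, 270.1, 284 and 286 FPKM and the exon 5a transcript (ENSMUST00000110098) at 7.03, 7.35, 6.18 and 7.92. Exon 5b made up 97.3% to 97.9% of the pair, the narrowest range of the 4 genes.

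Pkm codes for pyruvate kinase, the last enzyme of glycolysis, in an M1 form typical of differentiated tissue and an M2 form typical of growing cells, which differ in an exon of 167 bases. The M1 exon lies at chr9:59675029-59675195 and the M2 exon at chr9:59675568-59675734, and they differ at 64 bases.
Pkm M1: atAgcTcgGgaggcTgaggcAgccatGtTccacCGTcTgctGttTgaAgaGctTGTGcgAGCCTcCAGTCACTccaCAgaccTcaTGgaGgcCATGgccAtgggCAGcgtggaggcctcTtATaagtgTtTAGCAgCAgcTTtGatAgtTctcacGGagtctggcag
Pkm M2: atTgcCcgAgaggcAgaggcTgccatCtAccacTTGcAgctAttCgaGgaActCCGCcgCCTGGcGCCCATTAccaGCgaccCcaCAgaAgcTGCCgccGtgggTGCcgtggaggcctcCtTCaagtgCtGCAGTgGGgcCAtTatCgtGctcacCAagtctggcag
The M1 transcript (ENSMUST00000163694) stood at 127, 123, 114 and 139.7 FPKM and the M2 transcript (ENSMUST00000034834) at 14.8, 12.9, 14.8 and 18.4. M1 made up 88.3% to 90.5% of the pair in the 4 mice.

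In Ppp3ca a short exon is kept or skipped, 30 bases at chr3:136932011-136932040.
Ppp3ca optional exon: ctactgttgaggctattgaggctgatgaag
The Ppp3ca transcript with its exon stood at 151, 166, 149.7 and 153 FPKM and the one without it at 77.4, 73.1, 74.9 and 70.2. Its share was 66.2% to 69.5%. Cufflinks divides reads that fit several transcripts by a model, and the transcripts of a pair can differ elsewhere too, so these shares are estimates for whole transcripts.

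**Figure D3:**
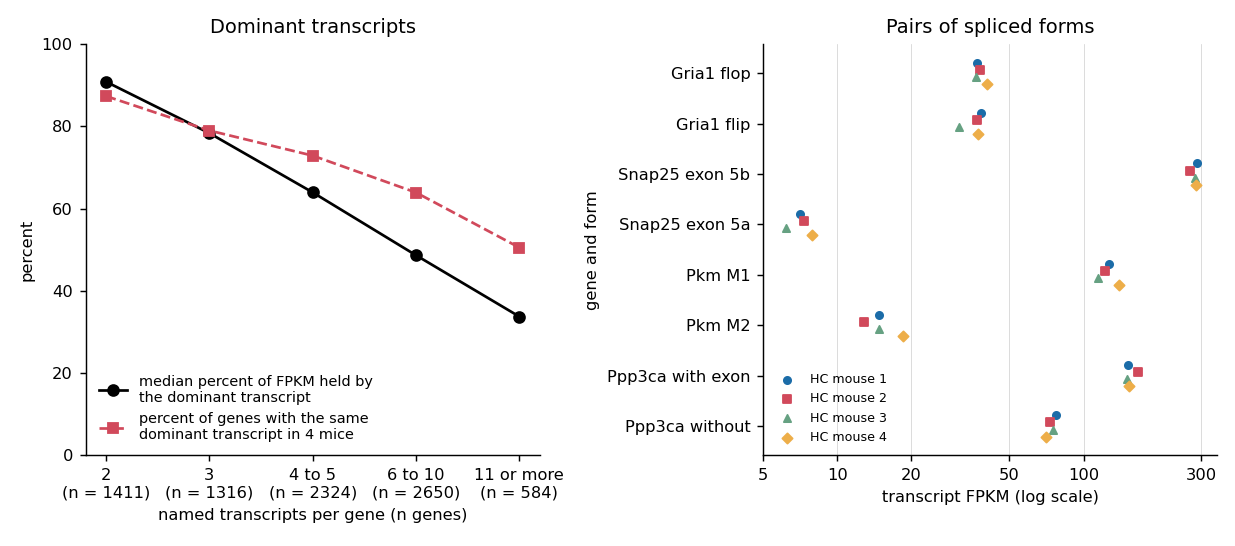
Left, the median percent of a gene's FPKM held by its dominant transcript (black) and the percent of genes with the same dominant transcript in all 4 HC mice (red), by the number of named transcripts per gene. Both fall, from 90.8% and 87.3% to 33.7% and 50.5%. Right, the FPKM (log scale) of the 4 pairs of spliced forms, 1 point per HC mouse. Snap25 and Pkm show forms far apart, Gria1 forms that lie close together.

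The dominant transcript was not always one that codes for the protein. By its GENCODE type it was protein coding in 7039 of 8070 protein coding genes (87.2%), carried a retained intron in 578 (7.16%), was a processed transcript in 301 and was marked for nonsense-mediated decay in 150. The 10 most abundant genes with such a dominant transcript included Rpl13a, Ppia, Hnrnpk, Dynll1, Kcnab2, Ptms, Tpt1 and Mobp. In Ppia, cyclophilin A, a transcript marked for decay held 98.9% of 123 FPKM, and in Ptms, parathymosin, a processed transcript held 92.6% of 93.2 FPKM, in all 4 mice. Gria2, the AMPA receptor subunit GluA2, had a retained-intron transcript of 36.0, 31.8, 34.5 and 36.3 FPKM, above the protein coding transcript at 20.9, 29.3, 22.4 and 25.1, with no overlap between both. The 10 most abundant genes in which mice differed in the leading transcript included Malat1, Ncdn, Atp6v0c, Eif1, Ptgds, Gpi1, Cltc, Rps2 and Gria1. In these the leading pair was mostly close to even, except in Rps2, a ribosomal protein, where the leading transcript held 74.5% and the next 17.8%. Close pairs were seen in Malat1 with 2 transcripts of 894 and 877 FPKM, in Cltc, clathrin heavy chain, with 32.9 and 32.9, and in Eif1, a translation initiation factor, with 48.6 and 48.2.

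Of the subfield markers with values, 9 of 10 DG genes, 8 of 9 CA3 and CA2 genes and 8 of 9 CA1 genes had a mean of at least 1 FPKM. Prox1, the transcription factor of DG granule neurons, stood at 9.74, 8.73, 8.06 and 8.15 FPKM, and Calb1, calbindin, at 11.6 ± 1.01. For CA1, Mpped1 reached 27.2 ± 1.11 and Fibcd1 8.60 ± 0.998, and for CA3 and CA2, Cpne4 reached 21.3 ± 4.30 and Rgs14, a marker of CA2, 8.35 ± 1.10. The summed lists ranged over the 4 mice from 47.1 to 53.1 FPKM for the DG (10 genes), from 50.8 to 60.8 for CA3 and CA2 (9 genes) and from 69.9 to 79.3 for CA1 (9 genes), the last with mouse 3 below the other mice. Wfs1 of the CA1 list was low, at 1.93 FPKM, Tdo2 of the DG list was at 0.683 and Cdh24 of the CA3 list was at 0.0759. Cpne7, Map3k15 and Pou3f1 had no named value. The lists for the neighboring striatum, thalamus and neocortex had lower sums, 19.8 ± 1.47, 20.04 ± 1.81 and 21.9 ± 1.01 FPKM over 10, 8 and 8 genes. Their members were uneven. In the striatal list, the dopamine and adenosine receptors Drd2 and Adora2a stood at 0.227 and 0.113, but Ppp1r1b (DARPP-32) and Pde10a at 7.56 and 5.27. Calb2, calretinin, of the thalamic list was at 6.18, and Tshz2 and Lamp5 of the neocortical list at 6.15 and 5.98. The median gene of the neocortical list, at 2.46 FPKM, was as high as that of the CA3 and CA2 list, so that the lists do not separate these regions by level.

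Glutamatergic neurons and astrocytes had the highest marker sums. Slc17a7, the vesicular glutamate transporter of cortical and hippocampal neurons, stood at 134, 144, 123 and 149 FPKM, whereas Slc17a6, the transporter of thalamic and brainstem neurons, was at 1.84 ± 0.329. Of the interneuron genes, the peptide genes Cck at 67.0 ± 4.04 and Sst at 48.7 ± 7.13 were the highest, although Cck is also made by pyramidal neurons. Gad1 and Gad2, the enzymes that make GABA, stood at 39.8 ± 2.46 and 12.6 ± 0.513, and Pvalb and Vip, which mark separate classes of interneurons, at 13.0 ± 1.31 and 1.41 ± 0.420. Astrocytes were represented by Glul and Slc1a2 as above and by Aldoc at 84.9 ± 6.68, Slc1a3 at 58.2 ± 3.07 and Gfap, their intermediate filament, at 42.8 ± 3.28. Oligodendrocytes showed Mobp at 90.2 ± 6.85, Mag at 33.3 ± 5.29 and Cnp at 30.05 ± 1.45 beside Mbp. Their precursors were much lower, with Pdgfra at 4.82 ± 0.505. Microglial genes were present at low levels, with P2ry12 at 9.57 ± 0.629, Csf1r at 7.36 ± 0.381 and Cx3cr1 at 5.42 ± 0.226. Their spread differed, and Aif1, which codes for the microglial protein Iba1, stood at 1.32, 0.781, 0.554 and 0.904 FPKM. Of the vessel genes, Ly6c1 at 10.6 ± 1.64 and Rgs5, a gene of pericytes, at 10.5 ± 0.261 were the highest, while Pecam1 and Cdh5, adhesion proteins of endothelial cells, were at 1.61 ± 0.347 and 0.721 ± 0.0723 and the median gene of the list at 1.90 FPKM.

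Choroid plexus markers set mouse 2 apart. Their sum over 11 genes was 105, 21.6, 133 and 108 FPKM in mice 1 to 4, and 10 of the 11 genes were lowest in mouse 2. Enpp2, autotaxin, stood at 75.8, 15.9, 85.2 and 73.1 FPKM, Folr1, a folate receptor, at 4.50, 0.0560, 4.63 and 4.89 and Kcnj13, a potassium channel, at 3.92, 0.761, 5.22 and 4.596. The unnamed transcript at the Ttr locus, MSTRG.33038.2, stood at 357, 8.56, 472 and 452 FPKM. Without mouse 2, an alternative chosen after the values had been seen, the coefficient of variation of the list fell from 52.8% to 13.4%. Mouse 2 was not alone in the series, since the lowest sums of the list were 73.9 in Ctrl, 23.2 in NLH and 15.6 in LH and the highest 177, 219 and 341. The ependymal list, for cells that line the ventricle, had its lowest sum in mouse 2, at 7.10 FPKM against 8.86 to 10.1, but only 3 of its 6 genes were lowest there and most of the sum was Pltp, a phospholipid transfer protein, at 6.49, 4.42, 5.94 and 7.30. Red blood cell genes set mouse 1 apart, with a sum of 398 FPKM against 221 to 242 and Hba-a1, alpha globin, at 114 against 59.1 to 65.9. The sums ranged from 217 to 308 FPKM in Ctrl, from 215 to 333 in NLH and from 144 to 459 in LH, so mouse 1 lay above the Ctrl and NLH mice and within the range of LH. Globin genes have near-identical copies, so the division of reads among them is uncertain. Whether the samples differed in the amount of ventricle tissue or blood was not tested.

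**Figure D4:**
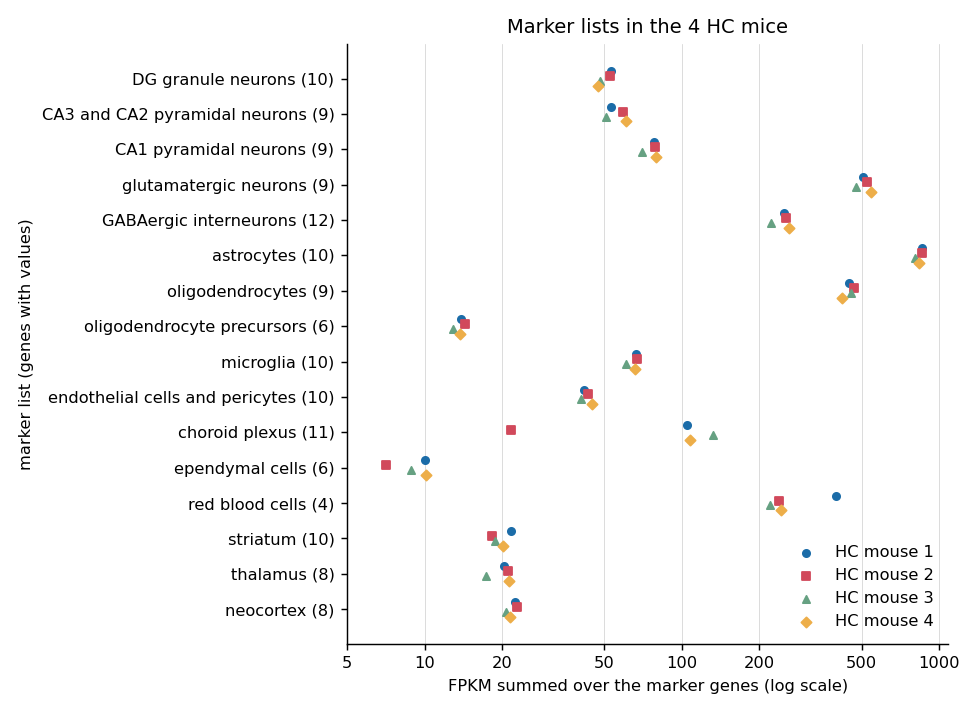
The FPKM summed over each list of marker genes (log scale), 1 point per HC mouse, with the number of genes that have values in brackets. The choroid plexus sum is 21.6 in mouse 2 against 105 to 133 and the red blood cell sum 398 in mouse 1 against 221 to 242.

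Genes of calcium signaling through calmodulin and CaMKII summed to 1168 ± 38.9 FPKM over the 12 genes of their list. Among the CaMKII subunits, Camk2a gave 75.4% ± 0.730 of the FPKM and Camk2b 21.5% ± 0.689, whereas Camk2d and Camk2g stood at 6.40 and 4.02 FPKM. Nrgn, neurogranin, which holds calmodulin at the membrane of dendrites, had 56.3 ± 1.26 FPKM. Camk4, a nuclear kinase, stood at 1.299, 0.000689, 0.711 and 0.000306 FPKM, above 1 only in mouse 1.

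All 18 measured genes of vesicle release were above 1 FPKM in the mean. Beside Snap25, the fusion proteins Vamp2 and Stx1a stood at 137.5 ± 8.54 and 7.85 ± 0.632. Syt1, the calcium sensor of fast release, had 93.6 ± 5.70, Cplx2, complexin 2, had 74.9 ± 4.37, Syn2, a synapsin, 67.3 ± 4.80, and the active zone proteins Pclo and Bsn 18.3 ± 0.677 and 13.4 ± 1.41 FPKM. Of the 18 genes, 14 were lowest in mouse 3, the mouse with the lowest summed FPKM. This was not particular to vesicle release, since 11 of 15 glycolysis genes and 8 of 10 microglial genes were also lowest there. In the oligodendrocyte list it was 0 of 9 genes. The share over all genes was not counted.

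By all named transcripts, coding or not, the main subunits of the AMPA receptor kept their order in all 4 mice. Gria2 stood at 89.0, 91.0, 86.1 and 90.3 FPKM, above Gria1 at 75.3, 75.1, 67.6 and 77.7 in every mouse, and Gria4 was at 10.0 ± 0.782. With the unnamed transcripts of each locus counted, Gria2 had 120, 118, 116 and 118 FPKM and Gria1 had 112, 116, 107 and 115, so Gria2 was still the higher one in each mouse but the ranges over mice met. The named Gria2 level included retained-intron transcripts of 34.7 and 18.9 FPKM, and its leading protein coding transcript had 24.4. The leading Gria1 transcripts, of 38.0 and 35.9 FPKM, were protein coding. The order of both genes thus need not hold for transcripts that code for the subunits. Among NMDA receptor genes, the obligatory subunit Grin1 had 40.9 ± 1.75, Grin2a 39.6 ± 1.197 and Grin2b 38.2 ± 1.37, values that overlap between genes, while Grin2c and Grin2d were at 0.308 and 0.497. Grik2 led the kainate receptors with 23.3 ± 0.657, and Grik4, which is typical of CA3, was at 2.46 ± 0.445. For GABA-A receptors, Gabra5, the subunit of extrasynaptic receptors that is typical of the hippocampus, had 32.8 ± 1.17, above Gabra4 at 11.7 ± 1.11 and Gabra2 at 8.78 ± 0.849. Of the postsynaptic scaffolds, the named transcripts of Dlgap1 had 81.1 ± 4.33, those of Dlg2, PSD-93, 38.5 ± 1.26 and those of Dlg4, PSD-95, 36.3 ± 5.60. The whole Dlg4 locus had 92.1 ± 6.90 FPKM, of which 60.6% had no name, so the order of these genes by named transcripts may not hold for whole loci. The whole loci of Dlgap1 and Dlg2 were not examined.

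Of the 11 activity-dependent genes with values, 4 had a mean of at least 1 FPKM in HC mice. Arc and Egr1 lay above the median protein coding gene, at 2.51 FPKM. Arc stood at 5.40, 7.96, 6.10 and 7.26 FPKM and Egr1 at 5.36, 5.90, 6.25 and 6.10, whereas Fos was at 0.735 ± 0.246, Npas4 at 0.671 ± 0.164 and Fosb at 0.304 ± 0.0335. Of Junb, the values used here hold only a processed transcript, at 0 in all 4 HC mice, which is no measure of the level of the gene. The 11 genes together, Junb included, summed to 16.9 to 21.7 FPKM in HC mice. Their sums were 22.8 to 33.2 in Ctrl, 21.2 to 28.7 for NLH and 20.9 to 33.5 for LH, and the groups were not tested against each other for this list. According to the methods, tissue of all groups was taken at a common time point, 3 h after the escape test. Genes induced by glucocorticoids were uneven, with Sgk1 at 20.6 ± 2.52, Per1 at 7.74 ± 2.07, Zbtb16 at 2.70 ± 0.384, Pdk4 at 1.07 ± 0.293 and Fkbp5 at 0.619, 3.44, 2.03 and 3.93 FPKM, lowest in mouse 1. The receptors themselves, Nr3c1 for glucocorticoids and Nr3c2 for mineralocorticoids, stood at 9.11 ± 0.569 and 9.78 ± 0.602. The 7 genes of this list summed to 47.0 to 60.6 FPKM in HC, with a median of 53.1. In Ctrl 1 mouse was at 82.2 and the other 3 at 46.1 to 51.7, while NLH mice ranged from 43.2 to 57.0 and LH mice from 41.4 to 61.4.

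Genes of energy supply and protein synthesis were high as groups. The 15 measured genes of glycolysis summed to 1146 ± 86.9 FPKM, led by Aldoa and by Pkm at 141 ± 12.6, with Gapdh at 43.7 ± 4.67. Mouse 4 had the highest sum and mouse 3 the lowest, 1260.1 and 1065. The 77 ribosomal protein genes summed to 3355 ± 204 FPKM, 2.62% of the summed FPKM, with a median gene at 35.5. Many of these genes have near-identical pseudogenes that can take part of their reads, so the level of a single one is uncertain.

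Mice of the HC group differed little for most genes. The SD of log2(FPKM + 0.1) over the 4 mice had a median of 0.148 among genes of at least 1 FPKM, a coefficient of variation of 10.5%, and 6990 of 10349 genes (67.5%) had an SD under 0.2. The median SD fell with the level, from 0.19 at 1 to 5 FPKM to 0.121 at 5 to 20, 0.0936 at 20 to 100 and 0.0839 at 100 or more. It was larger for lncRNA genes, at 0.236, than for protein coding genes, at 0.146, and the lncRNA genes were also lower in level. Pearson's r of log2(FPKM + 0.1) between 2 mice, across these genes, was 0.961 to 0.972.

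Most of the 10 genes that varied most had a very short leading transcript. The 10 with the largest SD among 4774 genes of at least 5 FPKM were Gm8325, Ttr, Gm2004, Gm2007, Gm14399, Rpl38, Nr4a2, Enpp2, Ralyl and Rps27. In 8 of the 10, the leading transcript was shorter than 400 bases, the exceptions being the choroid plexus genes Ttr and Enpp2. The share of such leading transcripts over all 4774 genes was not counted. Nr4a2, a nuclear receptor and early response gene, stood at 6.33, 6.46, 7.01 and 33.7 FPKM. Its high value in mouse 4 came from a transcript shorter than 200 bases at 26.2 FPKM that was at 0 in the other mice, while its longest protein coding transcript stood at 1.90, 2.57, 3.92 and 2.63. Rpl38, a ribosomal protein, stood at 80.3, 6.01, 43.7 and 45.5 FPKM, and Ralyl, an RNA-binding protein, at 10.5, 62.7, 34.4 and 33.2, of which a transcript of 267 bases made up 3.14, 57.6, 29.7 and 29.0. Gm2004 was at 21.0 in mouse 3 and at 0.151 to 0.360 in the others, and Gm2007 at 27.1 in mouse 1 and at 0.439 to 1.17. Both reached a mean of 5 FPKM only through 1 mouse, so the filter itself selected them for a large spread. Among transcripts of at least 5 FPKM, the median SD was 0.433 for those shorter than 400 bases, 0.220 from 400 to 1000 bases, 0.132 from 1000 to 2000 and 0.101 for longer ones, at median levels of 11.8, 10.1, 9.43 and 8.72 FPKM. These ranges of length held 43, 674, 815 and 2409 transcripts, and the same filter applied to them. By the class given with the values, Gm8325, a pseudogene, held the highest pseudogene transcript, at 10.5, 0, 28.8 and 0 FPKM, followed by transcripts of Tmem181b-ps at 7.06 ± 1.24 and Gm2274 at 4.00 ± 1.03. The least variable genes included Ivns1abp, Ints10, Gpd2 and Msantd4, with Ivns1abp at 16.3, 16.4, 16.4 and 16.4 FPKM. No mouse carried most of the extremes: among the 100 most variable genes, the value farthest from the others was in mouse 1 for 23 genes, in mouse 2 for 28, in mouse 3 for 28 and in mouse 4 for 21.

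The composition of the HC libraries was compared with that of the other groups, to see whether undisturbed mice differed from tested mice in the broad make-up of their RNA. The share of 4 classes was compared with each of the 3 other groups by exact two-sided permutation tests with Benjamini-Hochberg adjustment over the 12 comparisons, where 4 mice against 4 cannot give a p under 0.0286. HC mice had a lncRNA share of 2.84% ± 0.172, Ctrl mice of 2.64% ± 0.106, NLH mice of 2.59% ± 0.191 and LH mice of 2.69% ± 0.413, with raw p of 0.143, 0.143 and 0.571 by the exact permutation test and adjusted p of 0.429, 0.429 and 0.748. The protein coding share was 76.3% in HC against 76.6%, 77.4% and 75.3% in the other groups, taken in that order, with adjusted p of 0.643, 0.429 and 0.857 by the same exact test. The share without an identifier was 20.3% against 20.2%, 19.6% and 21.6%, with adjusted p of 0.748, 0.48 and 0.748 by the exact test. The 100 most abundant genes held 17.0% in HC against 17.1%, 16.7% and 16.8%. Against NLH the share was higher by 0.316 percentage points (16.80% to 17.30% against 16.48% to 16.76%), with a raw p of 0.0286, the smallest that the exact permutation test can give, and an adjusted p of 0.343. Against Ctrl and LH the adjusted p was 0.539 by the same exact test. Of the 12 comparisons, 0 passed the adjusted threshold of 0.05 and 1 had a raw p below it.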

How the data were processed

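Total RNA of the hippocampus was sequenced in paired ends, with 1 library per mouse, 16 mice in all. The deposited values are transcript FPKM computed by the authors. Per the labels, the processing notes name STAR 2.42a, StringTie 1.2.3, Cufflinks and the mm10 genome, whereas the study's methods name HISAT2 in place of STAR, so the aligner is uncertain. The limits of the authors' transcript filter and the strand setting are not given in the sources used here. FPKM was summed per gene name over the transcripts with an Ensembl identifier, of which 60863 of 61220 were found in the GENCODE vM21 annotation, the source of transcript types, exons and coordinates.

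Shares are percent of the summed FPKM, averaged over mice. Spread is the SD of log2(FPKM + 0.1), in genes of at least 1 FPKM, which understates differences of low genes. Dominance used genes of at least 1 FPKM with 2 or more transcripts. The dominant transcript's type was taken from GENCODE, an alternative chosen after seeing the data, since the class deposited with the values is that of the gene. Depth was estimated from loci with 1 transcript over 2000 bases, assuming fragments of 200 bases. At the estimated depth, 61.3% to 64.9% of the values used came within 0.1 of a whole fragment, against 20% by chance, so whole reads were not recovered and no count test was run. Groups came from the labels, and the labels do not say more of the replicates than that each is 1 mouse. The class shares of HC and each other group were compared by exact two-sided permutation tests with Benjamini-Hochberg adjustment. Scripts were tested on simulated data.

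The genes named are the 25 most abundant genes, the 10 most abundant transcripts and lncRNA genes, the 5 highest transcripts without identifier, the 3 highest pseudogene transcripts, the 10 most and 5 least variable genes of at least 5 FPKM, the first 10 genes with a dominant transcript not of the protein coding type or not shared by all mice, and members of the marker and pathway lists. Some genes that this rule names are not reported here. Genes and lists were chosen with earlier results of these data known. The ribosomal protein list leaves out kinases and binding proteins with similar symbols. Alternatives covered filters, the value added before the logarithm, scaling, sums per locus and leaving out each mouse. Python 3.11.15 with numpy 2.4.6, pandas 2.3.3, scipy 1.17.1 and matplotlib 3.10.9 was used.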

Additional observations from a re-analysis of the deposited data

Results flagged for a closer look

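Among 202 values of the HC group that were examined, for genes, lists and classes, 14 (6.93%) had 1 mouse far from the other 3, by the gap between the extreme mouse and its nearest neighbor relative to the whole range. Chance alone marks about 1 in 20 such groups of values, and the values are not independent of each other.

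Mouse 1 stood apart in blood genes. The red blood cell list summed to 398 FPKM against 221 to 242 in the other mice, Hbb-bs was at 275 against 157 to 172 and Hba-a1 at 114 against 59.1 to 65.9. Gm2007 was at 27.1 FPKM in mouse 1 against 0.439 to 1.17. In mouse 2, Folr1, a choroid plexus gene, was at 0.0560 FPKM against 4.50 to 4.89, and Cdh24 was at 0.295 against at most 0.00709.

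Mouse 3, which had the lowest summed FPKM, was low in Rn18s-rs5, whose transcript ENSMUST00000205406.1 was at 490 FPKM against 605 to 622, in Tpt1, a tumor protein controlled in translation, at 81.1 against 93.5 to 95.8, in Gas5 at 25.1 against 29.7 to 30.3 and in the list of CA1 genes at 69.9 against 77.9 to 79.3. It was high in the pseudogene share, at 0.112% against 0.0848% to 0.0889%, and in Gm2004, at 21.0 FPKM against 0.151 to 0.360. Whether the lower sum of mouse 3 bears on these values was not tested.

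Mouse 4 was high in Nr4a2, at 33.7 FPKM against 6.33 to 7.01, by its short transcript. Over the 12 mice of the other groups Nr4a2 ranged from 4.76 to 10.8 FPKM.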

How the results depend on the processing

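Of the alternative values, 24 moved and 3 changed sign, while 152 counted as unchanged, of which 12 with the replicate number as block and 4 with only Ensembl identifiers repeat the reported value by construction. For most results, a move means more than the SD over mice. For the median SD of log2 FPKM it means more than a leave-one-out standard error of 0.00665. For the number of genes that hold 50% of the FPKM it means more than 1.5 times. For the share of genes with a shared dominant transcript it means a value outside its binomial interval over genes, which is not a spread over mice. A tested difference between groups counted as unchanged where it kept its sign and its side of the threshold, whatever its size. The number of genes that hold 50% of the FPKM was 840.25 with only transcripts of at least 1 FPKM and 1218 per locus, against 1076.25. With only transcripts of at least 1 FPKM, the shares of protein coding genes, lncRNAs and transcripts without identifier were 77.8%, 2.56% and 19.05%, and the 100 most abundant genes held 18.9%. Summed per locus they held 15.997%, and the dominant transcript a median of 57.7%. Over genes of at least 0.1 and 10 FPKM, that median was 63.7% and 66.1%, and the dominant transcript was shared by all mice in 64.1% and 83.7% of genes. The median SD of log2 FPKM was 0.12 with 1 added, 0.19 in genes of at least 0.1 FPKM, 0.21 without a filter, 0.14 with size factors, 0.14 with equal sums and 0.19 for transcripts. Leaving out 1 HC mouse gave a median held of 62.8% to 63.3%, a shared dominant transcript in 75.4% to 76.9% of genes, where only 3 mice had to share it, and a median SD of 0.13 to 0.14. Leaving out 1 mouse of either group moved the HC minus LH difference in protein coding share between -0.895 and 1.92 percentage points and that in transcripts without identifier between -2.20 and 0.415, both with a change of sign without LH mouse 4. The HC minus Ctrl difference without identifier ran from -0.108, without HC mouse 3, to 0.346. Others kept their sign but moved by more than 1.5 times: HC minus LH in lncRNA share from 0.0253, without LH mouse 1, to 0.334, without LH mouse 4, around 0.147, HC minus Ctrl in protein coding share from -0.590, without Ctrl mouse 1, to -0.0769, without HC mouse 3, around -0.324, and the share of the 100 most abundant genes from -0.232, without HC mouse 2, to -0.0654, without HC mouse 3, around -0.131 for HC minus Ctrl and from 0.103, without LH mouse 1, to 0.374, without LH mouse 2, around 0.211 for HC minus LH. None of these differences had passed the threshold, and the cause was not tested.

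Mice of the same number did not deviate together (r = -0.0991 to 0.0751 over 12 pairs of mice, across genes), so the numbers were not used as pairs. With the replicate number as a replicate block, the differences keep their values by construction (HC minus NLH in protein coding share -1.09 percentage points) and the exact sign-flip test gave adjusted p of 0.75 to 0.875. With 4 pairs that test cannot give a p under 0.125, so no difference could have passed. FPKM carries no counts, so the precision of a low value cannot be given, and genes under 1 FPKM varied most.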
